A study of Mus musculus with 6 samples.

Results

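The 7 genes described here are the Gli transcription factors Gli1, Gli2 and Gli3 and 4 partners that act on them, Sufu, Kif7, Spop and Stk36, taken by gene symbol from the 19618 genes of the deposited count table. All 7 were present and all passed the filter on low counts, which left 15422 genes. The libraries came from keratinocytes of tail skin from mice aged 4 months, 3 knockout and 3 control. Knockout mice carried K14cre, a Cre recombinase driven by the keratin 14 promoter of basal epidermal cells, and 2 floxed copies of Gpr161, whereas controls carried floxed Gpr161 without K14cre, in the homozygous state in 1 mouse and the heterozygous state in the other 2. Presence of Cre and loss of Gpr161 therefore cannot be told apart in this design. Column names give the genotype and a tag but no sample title, so values are listed by tag, always in the order DE679, DE685, DE688 for the knockout and DE680, DE684, DE689 for the control.

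In mammals, Hedgehog signals are read in the primary cilium. Ligand binding to Ptch1 releases Smo, and Smo changes the balance between activator and repressor forms of the Gli zinc-finger proteins. Gli2 is the main activator, Gli3 is mostly processed to a repressor, and Gli1 is an activator whose own gene is a direct target of the pathway. Sufu binds Gli proteins and holds them inactive, Kif7 is a kinesin that organises the tip of the cilium and is needed for both restraint and activation of Gli proteins, and Spop is the substrate adaptor of a cullin 3 ubiquitin ligase that marks full-length Gli2 and Gli3 for degradation. Stk36 is the mammalian relative of the fly kinase Fused, known in mice mainly for its part in building motile cilia. Gpr161 is a ciliary receptor that raises cAMP and favours the repressor forms. In skin, Hedgehog signalling drives growth of the hair follicle, and excess Gli activity is a hallmark of basal cell carcinoma.

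Total estimated counts were 17157864 to 24988404 in the knockout libraries and 23074226 to 25344399 in the control libraries. Gpr161 itself, counted over the whole gene, had 28.8 ± 4.23 CPM (counts scaled to a common library size, with TMM, trimmed mean of M values, factors) in the knockout and 31.4 ± 1.10 in the control (SD, n = 3 each), with a log2 fold change of -0.13 (edgeR quasi-likelihood test, adjusted p 0.553), so these counts do not check the labels. Keratinocyte markers were abundant in every library, with 257145 to 370259 counts of Krt5, a keratin of basal cells. DE685 and DE684 held 3311 and 5291 counts of 4 Y-linked genes and the other libraries at most 3, which places 1 such library in each group.

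Transcripts of Gli1 and Gli2 rose strongly in the knockout, Kif7 rose moderately, and Gli3 had the same mean level in both groups. Of the 7 members, 3 were higher at an adjusted p under 0.05 and 0 were lower, where 1.6% of all genes tested passed that threshold, 1.24% as higher and 0.357% as lower. The CPM ranges of the groups did not overlap for 4 members, Gli1, Gli2, Kif7 and Sufu, against 25.6% of all genes tested. The labels do not say how the mice relate to each other beyond genotype, so p-values measure the spread between these libraries. RNA was taken from bulk cells, in which a change in the number of cells of a type and a change in RNA per cell cannot be told apart.

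**Figure D1:**
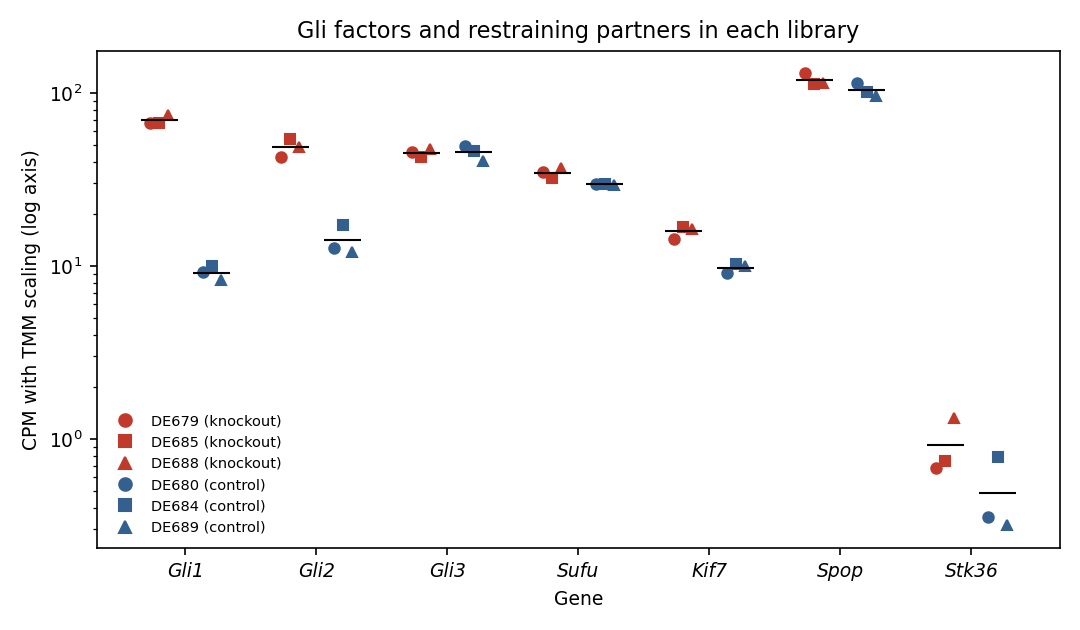
Level of each member in each library as CPM with TMM scaling on a log axis, with each group's mean as a black line. Gli1 and Gli2 sit well above the control in all 3 knockout libraries, Kif7 and Sufu lie higher by less, and the groups overlap for Gli3, Spop and Stk36.

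Gli1 (ENSMUSG00000025407.7, GRCm38 chromosome 10, 127329882 to 127341974, minus strand) showed the widest gap between the groups. The knockout libraries held 66.7, 67.1 and 74.5 CPM, and the control libraries 9.23, 9.96 and 8.25. Every knockout library was thus several-fold above every control, and the spread inside each group was small (coefficient of variation 6.36% in the knockout and 9.37% in the control). The log2 fold change was 2.93 (SE 0.10, 95% interval 2.702 to 3.148, edgeR adjusted p 1.77e-05), a 7.60-fold difference, and ranked 2 of the 15422 genes by p-value. Small parts of the exons of Gli1 overlap exons on the opposite strand, 1.24% of exon bases with Arhgap9 and 5.31% with Gm47200. Arhgap9 had 44 to 90 counts per library, against 208 to 1916 for Gli1. The labels name a stranded kit but not the strand setting of the counting.

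Gli2 (ENSMUSG00000048402.14, chromosome 1, 118834132 to 119053619, minus strand), the main activator, was the second member to rise. Its levels were 42.9, 54.4 and 48.8 CPM in the knockout and 12.8, 17.3 and 12.1 in the control. The lowest knockout library was well above the highest control, DE684. The change was 1.79 on the log2 scale (SE 0.15, interval 1.44 to 2.15, edgeR adjusted p 0.00259), or 3.46-fold. Its pooled SD within groups was 0.23 log2 units. The median was 0.11 over the 500 tested genes nearest to Gli2 in mean CPM over all 6 libraries. That mean lies between the levels of the groups, so these neighbours are not at the level of Gli2 in either group.

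Gli3 (ENSMUSG00000021318.15, chromosome 13, 15463235 to 15730026, plus strand), the main repressor, did not follow the other factors. The knockout libraries had 45.4, 42.7 and 47.1 CPM and the controls 49.1, 46.3 and 40.5. The control range enclosed the knockout range. The log2 change was -0.01 (SE 0.09, edgeR adjusted p 0.978), and its 95% interval was -0.21 to 0.20. Exons of Gm6556 on the opposite strand overlap 1.96% of the exon bases of Gli3, with 21 to 40 counts per library.

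Kif7 (ENSMUSG00000050382.14, chromosome 7, 79698098 to 79715720, minus strand) was the single restraining partner that passed the threshold. It had 14.4, 16.8 and 16.3 CPM in the knockout, from 339, 291 and 419 counts, and 9.05, 10.2 and 10.04 CPM in the control, from 204, 233 and 253 counts. The knockout libraries lay above all controls. The log2 change was 0.69 (SE 0.11, interval 0.44 to 0.95, edgeR adjusted p 0.0302), or 1.62-fold. This call was lost in each of the 6 fits without 1 library (DE679, DE685, DE688, DE680, DE684 or DE689), in which the change was 0.64 to 0.76 and the edgeR adjusted p 0.066 to 0.135. Exons of 9330171B17Rik and Ticrr on the opposite strand overlap 19.1% and 1.11% of the exon bases of Kif7. The first had 0 to 6 counts per library, and Ticrr, with 187 to 340, changed by -0.13 (edgeR adjusted p 0.699).

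Sufu (ENSMUSG00000025231.17, chromosome 19, 46396896 to 46488804, plus strand), the direct binding partner of Gli proteins, differed by too little for the threshold. Its levels were 34.7, 32.4 and 36.6 CPM in the knockout against 29.8, 29.9 and 29.4 in the control. The groups did not overlap, and the controls were nearly identical, with a coefficient of variation of 0.838%. The log2 difference of 0.22 (SE 0.07, interval 0.05 to 0.39) had an edgeR adjusted p of 0.177. This is a 1.16-fold difference that did not pass the threshold.

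Spop (ENSMUSG00000057522.15, chromosome 11, 95414080 to 95493406, plus strand), the degradation adaptor, was the most abundant member. It had 129.8, 112 and 113.8 CPM in the knockout and 113.4, 101.9 and 95.4 in the control, with DE680 above DE685. The log2 difference was 0.20 (SE 0.09, interval -0.004 to 0.40, edgeR adjusted p 0.270).

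Stk36 (ENSMUSG00000033276.18, chromosome 1, 74601445 to 74636894, plus strand) was close to the limit of detection. The knockout libraries had 16, 13 and 34 counts and the controls 8, 18 and 8, or 0.679, 0.751 and 1.32 CPM against 0.355, 0.790 and 0.317. DE684 lay within the knockout range. The interval of the log2 difference ran from -0.18 to 2.03 (edgeR adjusted p 0.333), so a difference was not detectable at this depth.

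**Figure D2:**
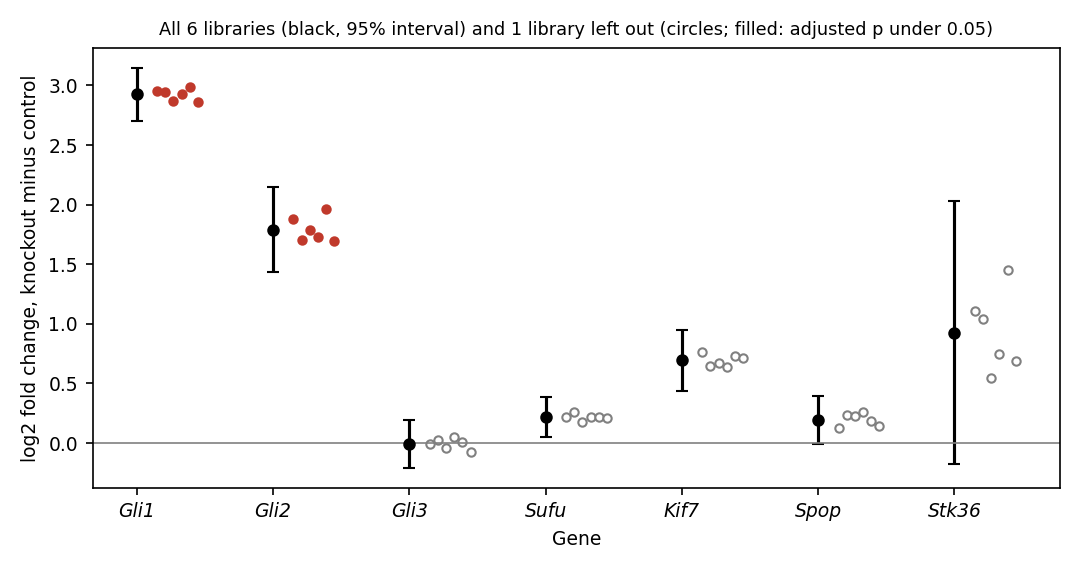
Log2 fold change of each member, knockout minus control, with its 95% interval from all 6 libraries (black) and the value with each library left out in turn (circles, filled where the adjusted p is under 0.05). Gli1 and Gli2 keep the call in all 6 such fits, Kif7 keeps its size but loses the call in all 6, and Stk36 has the widest interval.

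Consistency over libraries thus differed between members. In the fits that left out 1 library, the log2 change of Gli1 was 2.86 to 2.99 and that of Gli2 1.69 to 1.97, and both passed the threshold in all 6. Sufu and Kif7 were steadier within groups than genes with a similar mean over all 6 libraries. Their pooled SDs were 0.064 and 0.108 log2 units, against neighbour medians of 0.111 and 0.165. Spop was less steady, at 0.121 against 0.082. Gli1 and Gli3 lay near their neighbours, at 0.116 against 0.104 and 0.112 against 0.098. For Gli1, as for Gli2, the mean that chose the neighbours is the level of neither group. Stk36, with few counts, had 0.604 against 0.519.

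Because Gli2 and Kif7 rose and have promoter windows in RefSeq, the bases just upstream of them are shown. RefSeq windows of 300 bases (250 before and 50 after the start, GRCm38.p6) were matched for 6 of the 7 members, all but Gli1. The stretches printed are chr1:119053620-119053869 for Gli2 and chr7:79715721-79715957 for Kif7, both read 5′ to 3′ on the minus strand and ending just before the first annotated exon base. Capitals mark the GC box GGGCGG or its complement CCGCCC, the core letters that Sp-family factors are known to bind.
Gli2 upstream: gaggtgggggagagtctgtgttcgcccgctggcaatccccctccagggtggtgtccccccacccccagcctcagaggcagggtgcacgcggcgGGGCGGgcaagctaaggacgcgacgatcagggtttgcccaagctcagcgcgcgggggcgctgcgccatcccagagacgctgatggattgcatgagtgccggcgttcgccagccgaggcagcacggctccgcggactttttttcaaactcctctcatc
Kif7 upstream: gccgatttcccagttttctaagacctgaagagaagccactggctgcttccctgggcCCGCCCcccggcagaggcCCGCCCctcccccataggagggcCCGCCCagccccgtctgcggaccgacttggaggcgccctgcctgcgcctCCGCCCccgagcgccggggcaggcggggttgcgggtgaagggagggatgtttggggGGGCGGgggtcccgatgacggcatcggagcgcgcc

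Gli2 had 1 GC box and Kif7 had 5, and each of the 6 members with a window had at least 1, against 35.7% of all 32851 windows. GC content was 67.3% for Gli2, 74.0% for Kif7, 71.0% for Gli3, 73.7% for Spop, 57.0% for Stk36 and 56.3% for Sufu, with a median of 52.7% over all windows. CpG dinucleotides numbered 28 in the Gli2 window, 31 for Kif7, 39 for Gli3, 37 for Spop, 18 for Stk36 and 12 for Sufu, with a median of 7. The letters GACCACCCA, a consensus of Gli binding, were searched on both strands (TGGGTGGTC on the other). They occur in 0.253% of all windows, or in 6.74% with up to 1 mismatch, and in none of the 6 windows either way.

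The make-up of the Gli transcript pool changed from mostly Gli3 to mostly Gli1. Shares and ratios here are of RNA, and Gli protein, its activator and repressor forms and its binding to Sufu were not measured. Here levels are compared between genes as CPM per kilobase of annotated exon. Gli1 made up 54.1% ± 1.81 of the sum of Gli1, Gli2 and Gli3 in the knockout and 21.3% ± 0.343 in the control (SD, n = 3 each). Gli3 made up 18.3% ± 1.10 in the knockout and 55.0% ± 3.16 in the control. The Gli2 share was 27.6% ± 2.73 against 23.7% ± 3.01, and its ranges overlapped.

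The sum itself was 24.3, 25.8 and 26.9 CPM per kilobase in the knockout and 8.83, 9.35 and 7.64 in the control. Gli1 and Gli2 together stood to Gli3 as 4.14, 4.79 and 4.48 to 1 in the knockout and 0.725, 0.935 and 0.807 to 1 in the control. No control library reached 1 and no knockout library came below 4. Using the longest annotated transcript as the length in place of all exons, a choice made after the data were seen, gave Gli1 shares of 57.1% and 22.7%.

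**Figure D3:**
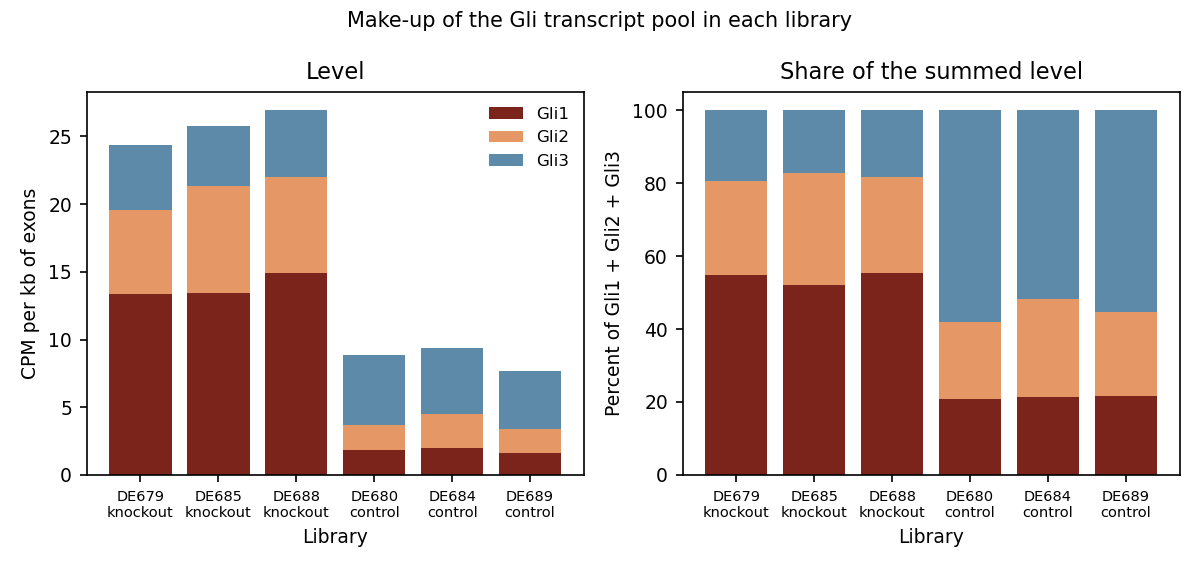
Stacked bars of Gli1, Gli2 and Gli3 in each library, as CPM per kilobase of exons (left) and as percent of their sum (right). The Gli3 segment is about the same height in all 6 libraries on the left, while the Gli1 and Gli2 segments are taller in the 3 knockout libraries.

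By level per kilobase, the order in the control was Spop (32.8 CPM per kilobase), Gli3 (4.73), Sufu (3.86), Kif7 (2.13), Gli2 (2.05), Gli1 (1.83) and Stk36 (0.0757). In the control the ranges of Kif7, Gli2 and Gli1 overlapped. That of Gli2, 1.76 to 2.52, enclosed that of Kif7, 1.98 to 2.23, and overlapped that of Gli1, 1.65 to 1.99. Within each control library Gli1 stood below Kif7 and Gli2, and Gli2 stood above Kif7 only in DE684. The place of Gli1 among them depends on the length used, since its longest transcript has 4057 bases, against 4995 for all exons. In the knockout the order was Spop (37.5), Gli1 (13.9), Gli2 (7.09), Gli3 (4.70), Sufu (4.49), Kif7 (3.46) and Stk36 (0.143). Gli3 and Sufu were neighbours whose ranges overlapped there, 4.46 to 4.92 and 4.21 to 4.76. Gli1 thus stood below Sufu in all 3 controls and above it in all 3 knockout libraries. These orders use all exons as the length, 7691 bases for Sufu and 9589 for Gli3. Their longest transcripts have 4522 and 8170 bases. The place of Sufu against Gli3, and against Gli2 in the knockout, depends on that choice. Among the genes tested with a length, Gli1 stood at percentile 31.9 by its control mean and 76.5 by its knockout mean, and Gli2 at 33.5 and 59.7. Gli3 was at 49.7 and 49.1, Sufu at 45.1 and 48.0, Kif7 at 34.1 and 42.4, Spop at 90.6 and 92.3 and Stk36 at 1.30 and 3.01.

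Ratios within a library do not depend on the scaling of libraries. Each of 15 ratios was formed, 3 between factors and 12 of a factor to a partner, and they are described without a test, because with 3 libraries against 3 an exact permutation test cannot go below 0.1 and because the ratios share genes. The ranges of the groups did not overlap for 13 of the 15, and 11 of the 15 were higher in the knockout. No such share was computed for pairs of other genes. Ratios with Gli1 or Gli2 carry the changes of these genes given above. Ratios of Gli3 to a partner carry mainly the change of the partner. The counts are therefore not further evidence.

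Transcripts of the activating factors gained on those of Sufu. Per kilobase, Gli1 to Sufu was 2.96, 3.19 and 3.13 in the knockout against 0.477, 0.513 and 0.432 in the control. Gli2 to Sufu was 1.39, 1.88 and 1.49 against 0.481, 0.649 and 0.460. With all exons as the length, both moved from below 1 in every control to above 1 in every knockout library. The longest annotated transcript has 4522 bases for Sufu, against 7691 for all exons, and 6637 for Gli2, against 6869. Where the Gli2 ratio stands relative to 1 in the knockout therefore depends on the length used. The log2 difference between the groups does not. Relative to Kif7, which itself rose, the gain was smaller: the log2 difference of the ratio was 2.23 for Gli1 and 1.11 for Gli2, against 2.71 and 1.59 relative to Sufu.

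Ratios with Gli3 on top were lower in the knockout. Gli3 to Sufu was 1.05, 1.06 and 1.03 in the knockout and 1.32, 1.24 and 1.11 in the control, a log2 difference of -0.22. Gli3 to Spop differed by -0.20 and Gli3 to Kif7 by -0.70, and these 3 ratios did not overlap between the groups. Gli3 itself changed by -0.01, so these differences carry the changes of Sufu, Spop and Kif7 given above. Those of Sufu and Spop did not pass the threshold. Between factors, Gli1 to Gli3 was 2.82, 3.01 and 3.04 in the knockout and 0.361, 0.413 and 0.391 in the control. Gli1 also gained on Gli2: that ratio was 2.14, 1.70 and 2.10 in the knockout and 0.993, 0.790 and 0.938 in the control. The 2 overlapping ratios were Gli2 and Gli3 to Stk36, the member with 8 to 34 counts per library.

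**Figure D4:**
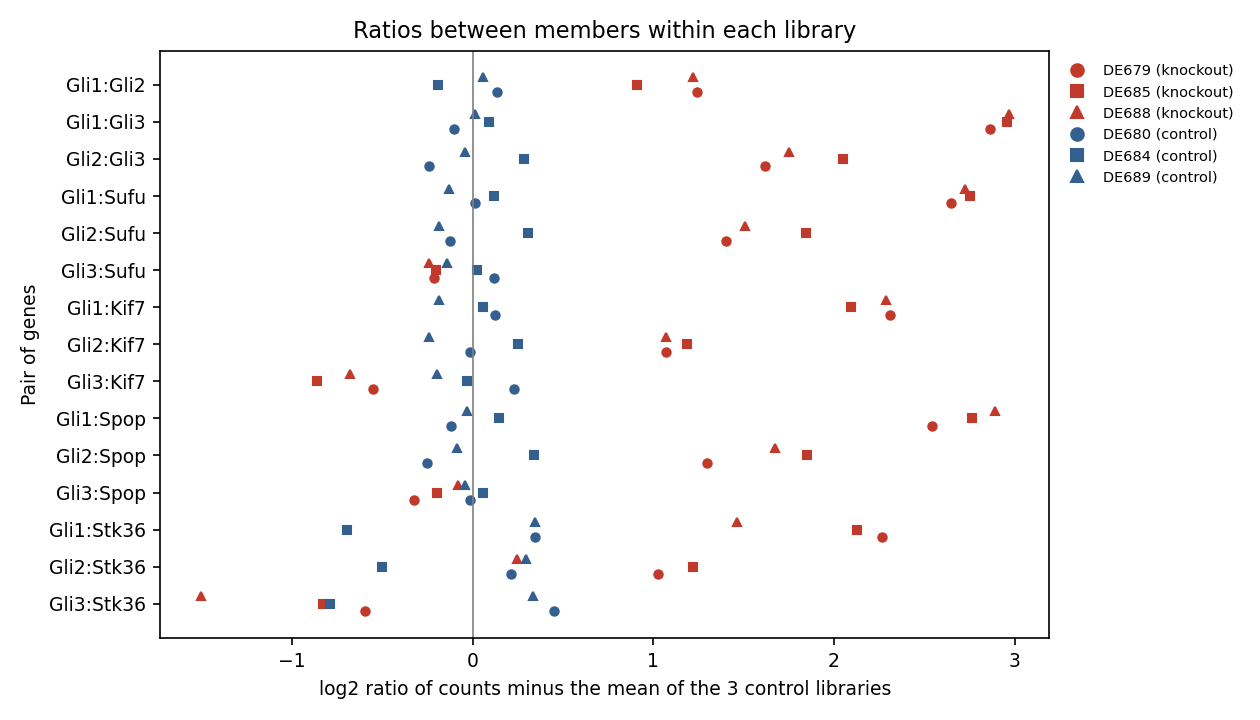
Log2 ratio of counts for 15 pairs of members in each library, minus the mean of the 3 control libraries for that pair. Ratios with Gli1 or Gli2 on top shift to the right in the knockout. Ratios of Gli3 to a partner shift to the left of the control mean, slightly for Sufu and Spop and more for Kif7 and Stk36. Pairs with Stk36 scatter most.

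Other genes of the pathway were taken from 5 lists. They name 67 genes, of which 59 are in the table and 56 were tested. Without counting a gene again where lists share it, 6 were higher at an edgeR adjusted p under 0.05 and 0 were lower. With neighbouring library tags as a replicate block, 12 were higher and 0 lower. Calls over all 15422 genes also rose, from 192 higher in the main fit to 465 higher with the block. The median log2 change of the pathway genes in the main fit was 0.02, against -0.004 for all genes tested.

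Upstream components, from ligands to Smo and its regulators, had 4 of 17 tested genes higher, 0 lower and a median log2 change of 0.40. Ptch1, the Hedgehog receptor and itself a pathway target, rose from 31.0, 40.4 and 40.1 CPM in the control to 95.5, 115.8 and 122.3 in the knockout (log2 change 1.58, edgeR adjusted p 0.00228). Smo, the transducer that Ptch1 restrains, changed by 0.43 (edgeR adjusted p 0.00883), a call lost without DE688. Tulp3, an adaptor that carries Gpr161 into cilia, changed by 0.61 (edgeR adjusted p 0.0116), a call lost without DE679 and without DE688. The ligand Shh had 0.0578 to 0.156 CPM in the knockout and 0.307 to 0.666 in the control and did not pass the filter on low counts, nor did Ihh.

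The listed Gli targets had 4 of 12 tested genes higher and 0 lower, with a median of 0.42, and Ptch1 is counted here as well. Foxc1, a forkhead transcription factor, changed by 0.67 (edgeR adjusted p 0.0186), and lost the call without DE685, DE688 or DE689. Rab34, a small GTPase involved in forming cilia, changed by 0.46 (edgeR adjusted p 0.0450) and lost it in each of the 6 fits without 1 library.

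Genes that modify or degrade Gli proteins did not pass the threshold. Of 17 kinases and phosphatase subunits, among them the catalytic and regulatory subunits of protein kinase A, Gsk3b and casein kinase 1, 0 passed and the median was -0.02. Changes were positive for 8 and negative for 9. The summed level of this list was 2312 to 2362 CPM in the knockout and 2451 to 2504 in the control. Of 11 subunits and helpers of ubiquitin ligases, 0 passed, 10 had a negative change and the median was -0.12. The summed level of the ligase list was also lower without overlap, at 863.0 to 911.4 CPM in the knockout and 967.6 to 980.4 in the control. How often sums of other gene lists fail to overlap was not computed. Sums weigh abundant genes most, such as Csnk1a1 in the kinase list, at 593.1 CPM in the knockout and 646.6 in the control, with overlap. Cul3, the cullin with which Spop works, had 139.2, 158.1 and 156.1 CPM in the knockout and 179.5, 176.9 and 177.0 in the control. Its log2 change of -0.23 had an edgeR adjusted p of 0.115, and it was lower at an adjusted p of 0.0468 with DESeq2. Btrc, the adaptor of the ligase that processes Gli3, had 16.8, 20.6 and 14.4 against 14.9, 15.3 and 15.4. Of the related zinc-finger genes only Glis2 and Glis3 had enough counts to be tested, and 0 passed.

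**Figure D5:**
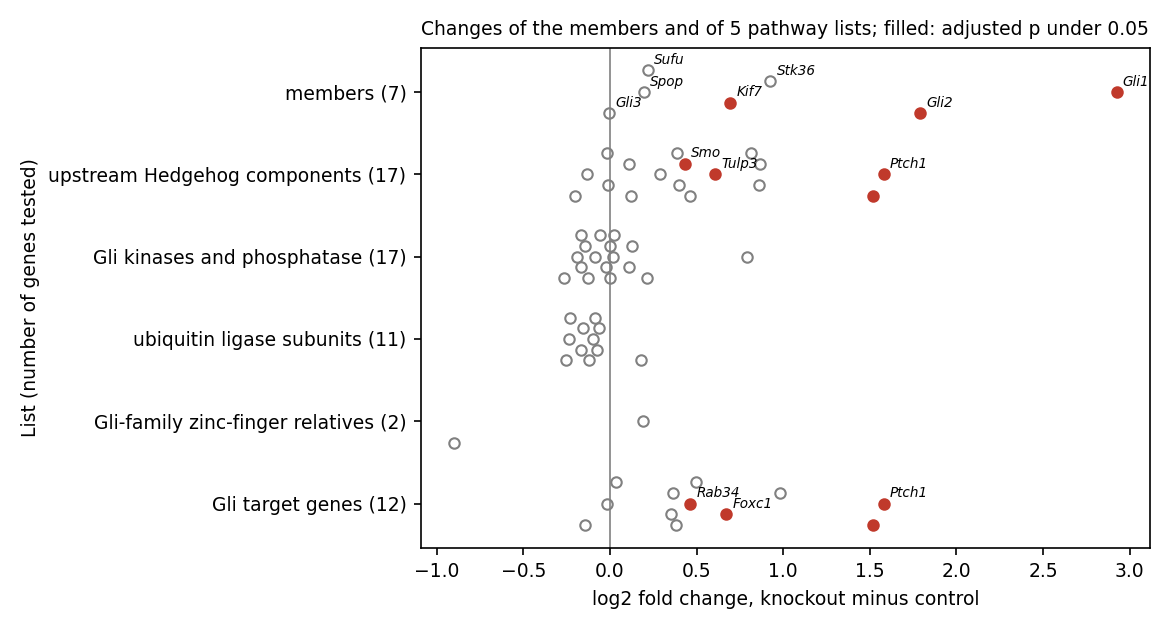
Log2 fold change, knockout minus control, of the 7 members and of the tested genes of 5 pathway lists, 1 row per list, filled where the edgeR adjusted p is under 0.05. Filled points lie to the right in the rows of members, upstream components and targets, and the rows of kinases and ubiquitin ligase subunits hold none.

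The genes whose profile over the 6 libraries was most like that of Gli1 were Adamts7, Scnn1b, Serpina3g, Eml1 and Gadl1. Likeness was the root-mean-square difference of log2 CPM after centring each gene on its mean, over 13664 genes with at least 1 CPM, and it was 0.16 for Adamts7 and 0.28 to 0.35 for the other 4. Adamts7, a secreted metalloproteinase, had 7.31 ± 1.03 CPM in the knockout and 1.11 ± 0.219 in the control (SD, n = 3 each). For Gli2 the nearest were Scnn1g, Ncmap, 5430421F17Rik, Tspan33 and Mamld1, from 0.10 for Scnn1g to 0.20 for Mamld1. Scnn1b and Scnn1g encode subunits of the epithelial sodium channel. Gli2 was the 21st nearest gene to Gli1, at 0.58. Genes with a large and steady difference of the same size are near by construction of this measure.

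Markers of other cells moved with the groups in part. The 10 hair follicle markers summed to 2847 to 3237 CPM in the knockout and 2105 to 2617 in the control, with Plet1 and Nfatc1 higher at an edgeR adjusted p under 0.05 and 9 of 10 positive. The 12 fibroblast and dermal papilla markers summed to 253.5 to 309.7 CPM against 159.5 to 168.3, with 1 of 9 tested genes, Dcn, higher. Without Dcn the sums were 141.6 to 187.8 and 127.7 to 138.6 CPM. Of the 9 tested changes, 5 were positive and 4 negative. Thy1 had 43.2 ± 6.33 CPM in the knockout and 23.9 ± 4.92 in the control (edgeR adjusted p 0.056), without overlap. Col6a1 had 76.3 against 58.9 CPM, with overlap. The collagens that define fibroblasts, Col1a1, Col1a2 and Col3a1, summed to 13.6 to 17.4 CPM in the knockout and 11.8 to 36.6 in the control, Lum had 2 to 7 counts per library and Twist2 0 to 5. Whether follicle or fibroblast RNA has a part in the differences of the Gli genes was not tested.

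Sums of the other marker lists overlapped between the groups or touched. Basal keratinocyte markers summed to 31110 to 34900 CPM in the knockout and 27090 to 32100 in the control, and differentiated keratinocyte markers to 26870 to 36620 and 31200 to 52810, with 0 genes of either list past the threshold and 8 of 8 changes of the second list negative. Merkel cell markers summed to 7.16 to 10.5 CPM against 7.23 to 8.01, with Atoh1 at 3 to 6 counts per library. Immune cell markers summed to 41.7 to 98.4 CPM against 20.7 to 80.6, with 7 of 7 tested changes positive and 0 past the threshold. Endothelial markers summed to 4.62 to 5.52 against 5.28 to 8.42, Schwann cell markers to 51.8 to 54.3 against 46.8 to 59.7, sebaceous gland markers to 5657 to 6396 against 5815 to 6760 and skeletal muscle markers to 1.95 to 2.04 against 1.38 to 2.41. Melanocyte markers summed to 81.0 to 119.7 CPM against 56.0 to 81.0, with 7 of 7 changes positive and 0 past the threshold.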

How the data were processed

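Values are the estimated counts deposited by the authors, 53.0% to 57.7% of them whole per library; their separate normalized table was not used. Per the submitters' processing notes, bcl2fastq 2.20, cutadapt 1.18, STAR 2.7.0f, Partek and the build mm10 were used; the annotation release and strand setting are not given in the sources used here. Estimates were rounded to whole numbers and genes filtered with the filterByExpr defaults. TMM factors ran from 0.976 to 1.03. The model covered all 6 libraries, with glmQLFit and glmQLFTest of edgeR 4.0.16 (R 4.3.3), with genotype as the only term and Benjamini-Hochberg adjustment over 15422 genes. The fit was tested on simulated data. Each standard error is the size of the change divided by the square root of F, and intervals are at 95%. A count of 3 corresponds to 0.117 to 0.173 CPM per library and covers counting error only. Exon lengths and overlaps come from GENCODE M21 (GRCm38), which has the same name and coordinates for 96.4% of the deposited genes.

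Whole counts had been planned for, and rounding left the planned test usable. The members and lists were chosen with earlier results of these data known. Named were the 7 members, Gpr161, up to 4 genes per pathway list past the threshold by smallest p, and the 5 nearest profiles for Gli1 and Gli2; 1 further gene that this rule names is not reported here. Shh, Ihh, Cul3, Btrc, Glis2, Glis3 and marker genes were named after their values were seen. Other settings tried were scaling by upper quartile or by relative log expression, testing every gene, keeping genes that average 1 CPM or more, limma-voom (limma 3.58.1), DESeq2 1.42.0, a covariate for Y-linked transcripts, a block of neighbouring library tags (added after the data were seen) and each library left out in turn.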

Additional observations from a re-analysis of the deposited data

How the results depend on the processing

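The 3 calls among the members were Gli1, Gli2 and Kif7 with upper-quartile or relative log expression scaling, without a filter, with a 1 CPM minimum on the mean, with limma-voom, DESeq2, the replicate block and the covariate for Y-linked transcripts, and 2, Gli1 and Gli2, in each of the 6 fits without 1 library. Pathway list genes past the threshold numbered 6, against 14 with DESeq2 (13 higher, and Cul3 lower) and 10 with the covariate for Y-linked transcripts. Without 1 library they numbered 1 to 4, the 1 being Ptch1 without DE688. Those fits have fewer libraries, but Gas1 passed without DE685 and Boc without DE689, and neither passed in the main fit. The cause of these differences in number was not tested. The Gli3 change of -0.01 turned to 0.012 with upper-quartile factors and 0.0044 with limma-voom, and was -0.078 to 0.054 without 1 library, with an adjusted p of 0.661 to 0.994 over all alternatives. The number of ratios whose groups did not overlap was 13 with unrounded values and 13 to 14 without 1 library. Low counts limit Stk36, whose log2 difference was 0.55 to 1.45 without 1 library. Over all genes, 247 passed, against 879 with DESeq2, 409 with that covariate and 69 to 121 without 1 library. The columns carry no replicate numbers, but their tags form 3 neighbouring pairs of a knockout and a control (DE679 and DE680, DE685 and DE684, DE688 and DE689), which no label says share a litter or day. Over 13665 genes, deviations from the group mean correlated at 0.179, 0.416 and 0.442 within these pairs. Between the other knockout and control libraries they correlated from -0.415 to -0.000235. Among libraries of the other genotype, the deviations of each library were thus most like those of its neighbour. Libraries of the same genotype were not compared, and deviations that sum to 0 within a group push the other values down. A replicate block of these pairs, chosen after the data were seen, gave 12 pathway list genes, 704 genes in all and the same 3 members (Kif7 adjusted p 0.0149). The control homozygous for the floxed allele could not be singled out.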

Other observations

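Within each genotype, Gli2 was highest in the library with Y-linked transcripts: 54.4 CPM in DE685 against 42.9 and 48.8 in the other knockout libraries, and 17.3 CPM in DE684 against 12.8 and 12.1 in the other controls. With 1 such library per group this was not tested. DE685 and DE684 are also a pair of neighbouring tags, so Y-linked transcripts and that pair cannot be told apart. With the block of neighbouring tags the Gli2 change was 1.80 (edgeR adjusted p 0.000229). With a covariate for Y-linked transcripts it was also 1.80 (edgeR adjusted p 0.000283).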
